A study of Mus musculus with 12 samples.

Results

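The genes described here make prostaglandins, break them down and receive their signal in CT26 cells with and without Mll3. They were given as a list of 10 mouse genes: the phospholipase gene Pla2g4a, the cyclooxygenase genes Ptgs1 and Ptgs2, the synthase genes Ptges, Ptges2, Ptges3 and Ptgis, the breakdown enzyme gene Hpgd, and the prostaglandin E receptor genes Ptger1 and Ptger4. Of these 10 genes, 9 were found by symbol among the 17718 genes of the count table, and Hpgd was not analysed here. CT26 cells derive from a colon carcinoma of a BALB/c mouse. Mll3, now called Kmt2c, encodes a methyltransferase of histone H3 that acts at enhancers. RNA was measured in 6 of the 12 samples of the series, 3 libraries of untreated CT26 cells with wild-type Mll3 and 3 of cells whose genotype is given as Mll3KO. No other allele or agent is named for either genotype, and the cells were grown in culture without a host. The columns of the count table for the knock-out are named sg1, sg2 and sg3 and were put in that group because sg is the usual short form of single guide RNA. The labels do not say how the knock-out was made, whether it is 1 clone or a pool, or whether the libraries of a genotype came from separate cultures, so the spread between libraries may be technical. The 10 genes were chosen by a rule that names the counts of these same libraries, wild-type against knock-out, with their differences known. The differences of its members are therefore a description: the members entered the fit over all genes, and how many passed its threshold is counted, but no p-value is given for them and nothing rests on those calls.

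Prostaglandins are short-lived lipid signals made on demand from membrane lipid. Cytosolic phospholipase releases arachidonic acid, either cyclooxygenase turns it into prostaglandin H2, and terminal synthases turn that into prostaglandin E2, prostacyclin or other products. Prostaglandin E2 acts through G protein-coupled receptors and is broken down by 15-hydroxyprostaglandin dehydrogenase, the product of Hpgd. In the colon, the inducible cyclooxygenase encoded by Ptgs2 is known for its rise in many tumours, while Ptgs1 is the form found at a steadier level in most tissues. The receptor EP4, encoded by Ptger4, raises cyclic AMP, and EP1, encoded by Ptger1, raises calcium in the cell.

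The promoters of the phospholipase gene, of both cyclooxygenase genes and of Ptges are shown because these are the linked steps from membrane lipid to prostaglandin E2 and because Ptgs2 and Ptges stood on opposite sides between the genotypes. The sequences are the 250 bases before an annotated start, 5′ to 3′ on the gene's own strand, as RefSeq gives them on assembly GRCm38.p6 (mm10). They belong to the C57BL/6J reference and not to the BALB/c genome of CT26. Ptgs2 lies at chr1:150099781-150100030 on the plus strand, Ptgs1 at chr2:36230176-36230425 on the plus strand, Pla2g4a (the first of its annotated starts) at chr1:149961291-149961540 on the minus strand, and Ptges at chr2:30903298-30903547 on the minus strand. By the gene coordinates given below, the windows of Ptgs1 and Ptges lie inside the spans of these genes. They precede a start inside the gene and not its outer end. Capitals mark matches to the motifs searched, which are described after the sequences.
Ptgs2: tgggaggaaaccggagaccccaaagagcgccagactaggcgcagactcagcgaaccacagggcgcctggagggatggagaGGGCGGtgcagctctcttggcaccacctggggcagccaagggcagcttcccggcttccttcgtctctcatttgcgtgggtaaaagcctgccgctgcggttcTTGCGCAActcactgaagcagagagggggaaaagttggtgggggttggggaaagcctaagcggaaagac
Ptgs1: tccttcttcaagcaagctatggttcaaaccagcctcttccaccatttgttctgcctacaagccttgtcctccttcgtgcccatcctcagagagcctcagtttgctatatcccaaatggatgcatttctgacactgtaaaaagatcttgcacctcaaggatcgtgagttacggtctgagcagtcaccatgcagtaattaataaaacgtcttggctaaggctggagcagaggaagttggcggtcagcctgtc
Pla2g4a: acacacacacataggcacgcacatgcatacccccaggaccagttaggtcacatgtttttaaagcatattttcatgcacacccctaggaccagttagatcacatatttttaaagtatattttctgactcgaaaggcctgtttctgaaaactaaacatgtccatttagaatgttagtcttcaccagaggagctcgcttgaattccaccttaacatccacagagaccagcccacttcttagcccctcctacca
Ptges: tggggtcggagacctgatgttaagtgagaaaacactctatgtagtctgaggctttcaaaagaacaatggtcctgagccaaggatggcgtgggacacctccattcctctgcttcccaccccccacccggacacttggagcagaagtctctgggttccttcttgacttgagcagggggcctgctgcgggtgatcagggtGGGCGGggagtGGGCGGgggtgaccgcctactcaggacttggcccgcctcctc

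Motifs were searched on both strands in windows of 300 bases, from 250 before to 50 after the start. Promoter windows were found for 8 of the 10 genes. Ptgis and Ptger1 had none and are named only. The Ptgs2 promoter held an Sp1 site (GGGCGG), found in 35.6% of 32807 mouse promoter windows, at -170 to -165. It held a C/EBP site (TTGCNNAA), found in 10.8% of them, at -69 to -62. Past its start, at 17 to 22, stood an E-box (CACGTG), found in 7.15% of promoters, and at 14 to 18 a cyclic AMP response element half-site (TGACG, found in 20.8%) on the other strand, which overlapped the E-box. Ptges held 2 Sp1 sites, at -53 to -48 and -42 to -37. The windows of Ptgs1 and of the first start of Pla2g4a held no match to any motif searched. The other motifs searched were the TATA box (TATAAA, in 13.6% of promoters), the full cyclic AMP response element (TGACGTCA, in 1.79%), the AP-1 site (TGANTCA, in 7.82%) and the NF-kB site (in 8.46%), and none of these was present in the 4 windows shown. G and C made up 61.6% of the bases printed for Ptgs2, 59.6% for Ptges, 48.0% for Ptgs1 and 43.2% for Pla2g4a. These matches are letters in a reference sequence and were not set against binding.

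Total counts per library ran from 9559658 to 13406013, and levels are given in CPM, counts divided by library size after TMM scaling, where 1 count was worth 0.0786 to 0.108 CPM. Kmt2c, the targeted gene, was at 24.9, 26.2 and 25.0 CPM in wild-type libraries and 16.0, 11.2 and 14.8 CPM in those of the knock-out (log2 fold change -0.87, SE 0.129, edgeR adjusted p = 4.33e-08); its counts cover the whole gene and cannot show an edit. As background for the marker counts, 33.1% of all 13013 genes tested were called higher in the knock-out and 33.2% lower (edgeR adjusted p under 0.05). Of 15 epithelial markers, 5 were tested and 4 were higher in the knock-out, with summed levels of 55.5 to 58.5 CPM in wild-type and 172 to 183 CPM in knock-out libraries. Most of that sum was Krt18, a keratin of simple epithelia, while Epcam and Cdh1 were among the 9 not analysed here. Of 17 markers of macrophages and other leukocytes, cells that can make prostaglandins, 4 were tested, 2 were higher and 1 lower, with sums of 35.5 to 41.3 and 43.7 to 52.1 CPM. Ptprc, which defines leukocytes, had 3 counts over the wild-type libraries and 9 over the knock-out libraries. Of 12 fibroblast and endothelial markers, 7 were tested and 6 were higher, with sums of 1010 to 1027 and 1327 to 1366 CPM that were mostly Col1a2, a collagen I chain. Of 6 platelet markers, 2 were tested and 1 was higher, with sums of 1.96 to 3.45 and 5.02 to 7.44 CPM, and Hdc, the 1 mast cell marker of 9 with a row, stood at 0.393 to 1.63 and 1.54 to 1.57 CPM. Krt8 (1, 1 and 2 wild-type counts), Lyz2 (8, 8 and 2), Acta2 (4, 0 and 1) and Gp9 (4, 1 and 2) were all called higher. So were Krt7 (16, 13 and 7) and Pecam1 (3, 3 and 10). These markers passed the filter on low counts (minimum count 10) only through the knock-out libraries, where they are high, so nothing is read from their calls. The part of these markers in the results was not tested.

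Between the genotypes the synthesis genes stood on different sides. The phospholipase and both cyclooxygenase genes were lower in the knock-out, most of all Ptgs2, while the synthase genes Ptges and Ptgis were higher. Ptges3 was slightly lower, and slightly higher with library size alone or upper-quartile scaling. The receptor gene Ptger1 was lower, and Ptges2 and Ptger4 did not separate the genotypes. Over all 13013 genes tested, 66.2% passed the edgeR threshold (adjusted p under 0.05), 33.1% higher and 33.2% lower in the knock-out. All 9 measured members passed the filter on low counts; of these, 2 were past that threshold and higher, 5 past it and lower, and 2 not past it. The groups of 3 libraries did not overlap for 7 of the 9 members, against 68.7% of all genes tested (34.4% higher and 34.3% lower in the knock-out). The median log2 fold change of the 9 members was -0.10, against 0.02 for all genes tested. Upper-quartile scaling gave 0.05 and library size alone 0.02 for the members; these scalings moved the median of all genes to 0.17 and 0.14. Because the list was chosen with this contrast known, nothing is read from these counts.

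**Figure D1:**
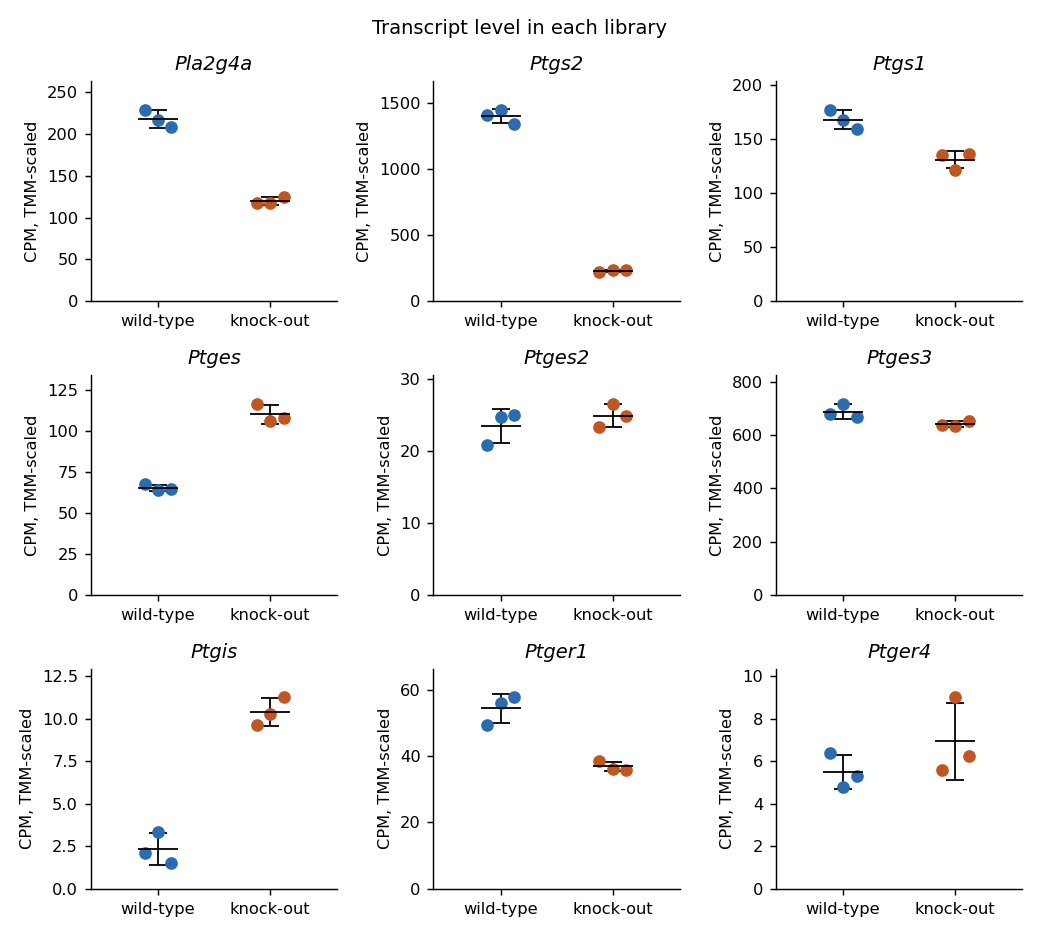
Level of each of the 9 measured genes in TMM-scaled CPM (vertical axis, linear, from 0, with its own range for each gene) in the 3 wild-type and 3 knock-out libraries (points), with the mean and SD of each group. Ptgs2 goes from 1403 to 231 CPM and Ptgis from 2.33 to 10.4 CPM, while the groups of Ptges2 and Ptger4 overlap.

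Pla2g4a (ENSMUSG00000056220, chromosome 1, 149829618 to 149961290) encodes cytosolic phospholipase A2 alpha, which frees arachidonic acid from membrane lipid. Wild-type libraries 1, 2 and 3 held 229, 216 and 208 CPM, and the knock-out libraries held 117, 117 and 125 CPM. Every knock-out library lay below every wild-type library, and the means were 218 ± 10.5 and 120 ± 4.22 CPM (SD, n = 3 per group). That is a log2 fold change, here always knock-out over wild-type, of -0.86 (SE 0.0482), or 1.82-fold lower in the knock-out. In bulk samples, fewer cells that express a gene and less RNA of it per cell cannot be told apart.

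Ptgs2 (ENSMUSG00000032487, chromosome 1, 150100031 to 150108234) encodes the inducible cyclooxygenase, the enzyme that makes prostaglandin H2 after growth factor or inflammatory signals. Wild-type libraries held 1413, 1452 and 1346 CPM of it and knock-out libraries 223, 235 and 236 CPM. The libraries of each genotype lay close together and the groups were far apart, with means of 1403 ± 53.7 and 231 ± 7.54 CPM (SD, n = 3 per group). The log2 fold change was -2.60 (SE 0.0373), 6.07-fold lower in the knock-out, and 59 of the 13013 genes tested, 0.453%, had a lower value. The transcript was still present in the knock-out, with 2274, 2723 and 2454 counts in its libraries against 17978, 14238 and 12481 in wild-type.

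Ptgs1 (ENSMUSG00000047250, chromosome 2, 36216742 to 36258593) encodes the constitutive cyclooxygenase, which carries out the same reaction. Its 3 wild-type values were 177, 167 and 159 CPM, and its 3 knock-out values were 135, 122 and 136 CPM. The groups did not overlap, but the lowest wild-type and the highest knock-out library were closer than for Ptgs2. The means were 168 ± 8.86 and 131 ± 8.10 CPM (SD, n = 3 per group), a log2 fold change of -0.36 (SE 0.0512), or 1.29-fold lower, and 25.7% of the genes tested had a lower value.

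The balance of counts between the cyclooxygenase genes shifted within every library. There were 7.98, 8.68 and 8.45 Ptgs2 counts for each Ptgs1 count in the wild-type libraries and 1.65, 1.94 and 1.74 in the knock-out libraries. This ratio is taken inside a library, so it does not depend on how libraries are scaled, and its means were 8.37 ± 0.354 and 1.77 ± 0.150 (SD, n = 3 per group). Ptgs2 made up 88.9% (exact 95% binomial interval 88.4% to 89.3%), 89.7% (89.2% to 90.1%) and 89.4% (88.9% to 89.9%) of the counts of both genes in wild-type libraries 1, 2 and 3. In the knock-out libraries it made up 62.2% (60.6% to 63.8%), 66.0% (64.5% to 67.4%) and 63.5% (61.9% to 65.0%). Ptgs2 thus still gave the larger number of counts in the knock-out libraries. These intervals cover counting error only. The counts were not divided by transcript length, so the ratio compares libraries and does not say which of the genes had more molecules.

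**Figure D2:**
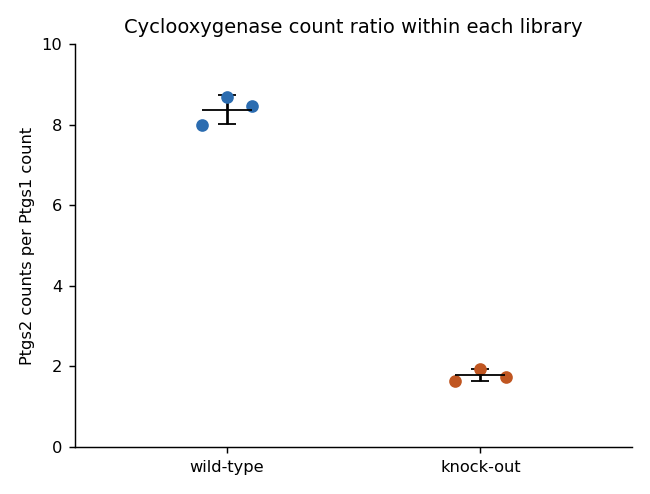
Ptgs2 counts per Ptgs1 count (vertical axis, linear, from 0, not adjusted for transcript length) in each of the 3 wild-type and 3 knock-out libraries (points), with the mean and SD of each group. The wild-type libraries lie between 7.98 and 8.68 and the knock-out libraries between 1.65 and 1.94.

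The synthase genes of prostaglandin E2 differed among themselves, with Ptges higher, Ptges2 overlapping between the genotypes and Ptges3 slightly lower on the TMM scale. Ptges (ENSMUSG00000050737, chromosome 2, 30889471 to 30931020) encodes the membrane-bound, inducible prostaglandin E synthase, which often acts together with the product of Ptgs2. Wild-type cells had 67.6, 64.2 and 64.6 CPM of Ptges and knock-out cells 117, 106 and 108 CPM. Every knock-out library was above every wild-type library. The means were 65.5 ± 1.83 and 110 ± 5.78 CPM (SD, n = 3 per group), a log2 fold change of 0.75 (SE 0.0608), or 1.68-fold higher, the opposite direction to Ptgs2. There were 20.9, 22.6 and 20.8 Ptgs2 counts per Ptges count in the wild-type libraries and 1.91, 2.23 and 2.19 in the knock-out libraries, again not adjusted for length. Ptges overlaps the predicted noncoding gene Gm52550 on the other strand and the pseudogene Gm13400. Neither was analysed here, so their reads were not separated from those of Ptges.

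Ptges2 (ENSMUSG00000026820, chromosome 2, 32395890 to 32402740) encodes another, membrane-associated prostaglandin E synthase. Its values were 20.7, 24.7 and 24.9 CPM in wild-type, and 23.3, 26.6 and 24.8 CPM with Mll3 knocked out. The groups overlapped, with means of 23.4 ± 2.34 and 24.9 ± 1.63 CPM (SD, n = 3 per group) and a log2 fold change of 0.09 (SE 0.112). Ptges3 (ENSMUSG00000071072, chromosome 10, 128058982 to 128077254) encodes p23, a co-chaperone of HSP90 that also has cytosolic prostaglandin E synthase activity. Ptges3 measured 679, 719 and 668 CPM in wild-type, and 637, 633 and 653 CPM with Mll3 knocked out. The groups lay close together without overlap, with means of 689 ± 26.7 and 641 ± 10.3 CPM and a log2 fold change of -0.10 (SE 0.0350), which turned to 0.02 with library size alone and to 0.05 with upper-quartile scaling.

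Ptgis (ENSMUSG00000017969, chromosome 2, 167203194 to 167252150) encodes prostacyclin synthase, the cytochrome P450 enzyme that makes prostaglandin I2. Ptgis measured 2.12, 3.37 and 1.51 CPM in wild-type cells, against 9.59, 10.3 and 11.2 CPM in knock-out cells. The wild-type libraries held few counts, and all 3 lay well below the knock-out libraries. Ptgis overlaps the predicted noncoding gene Gm52569, which was not analysed here, so reads of the pair were not separated. The means were 2.33 ± 0.946 and 10.4 ± 0.828 CPM (SD, n = 3 per group), a log2 fold change of 2.15 (SE 0.239), or 4.44-fold higher, and 97.6% of the genes tested had a lower value.

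The prostaglandin E receptor genes were at lower levels or did not differ clearly. Ptger4 (ENSMUSG00000039942, chromosome 15, 5233399 to 5244187), the gene of EP4, measured 6.36, 4.79 and 5.28 CPM in wild-type cells, against 5.58, 8.99 and 6.25 CPM in knock-out cells. The groups overlapped, and 1 knock-out library stood above the other 5. The means were 5.48 ± 0.804 and 6.94 ± 1.81 CPM (SD, n = 3 per group), a log2 fold change of 0.34 (SE 0.219). Without that knock-out library the value was 0.09. Ptger1 (ENSMUSG00000019464, chromosome 8, 83666644 to 83672756), the gene of EP1, measured 49.4, 56.1 and 57.7 CPM in wild-type cells, against 38.5, 36.2 and 35.9 CPM in knock-out cells. The groups did not overlap, with means of 54.4 ± 4.38 and 36.9 ± 1.38 CPM and a log2 fold change of -0.56 (SE 0.0826), or 1.47-fold lower. Whether strand was used in counting is not given in the sources used here, so the count of Ptger1 is uncertain and its value may not be its own.

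Pla2g4a and Ptgs2 are neighbours on chromosome 1, 138.7 kb apart, and other genes around them were lower as well. Within 2 Mb of Ptgs2, 15 other genes were tested, of which 14 had a log2 fold change below 0, and their median was -0.42, against -0.19 for the 717 tested genes of chromosome 1. The neighbours ran from -1.02 (Swt1, SE 0.139) to 0.86 (Rbm3-ps, SE 0.439), so Ptgs2, at -2.60, lay below all 15 and 2.18 below their median. The 15 neighbours of Pla2g4a are the same genes with Ptgs2 in place of Pla2g4a, so they are not a separate region. Of these 15, 3 were lower than Pla2g4a itself, which lay 0.44 below their median (0.36 to 0.57 over libraries left out). These 3 were Ptgs2, Swt1 and Ptgs2os2.

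**Figure D3:**
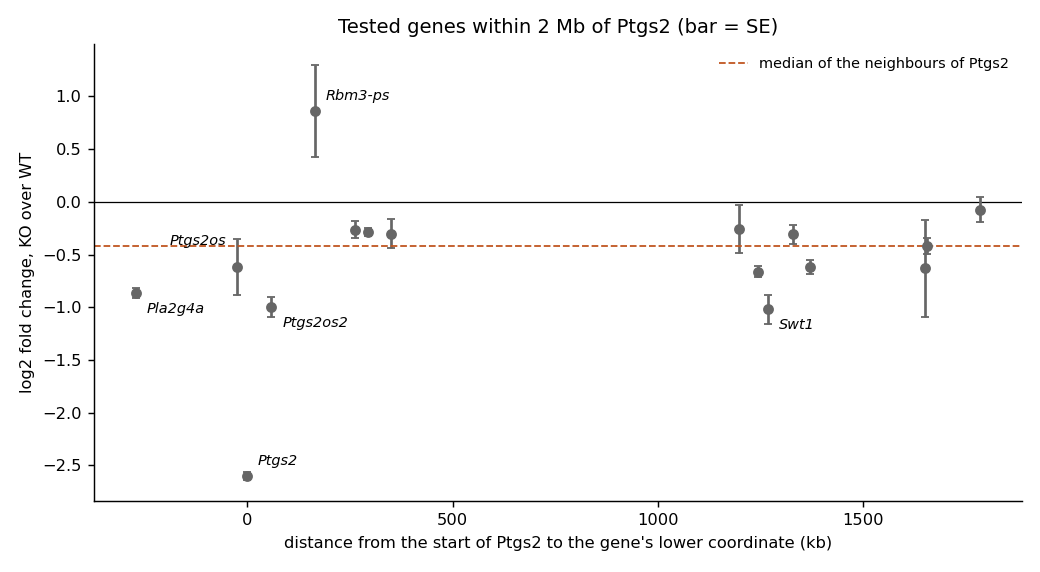
Log2 fold change, knock-out over wild-type (vertical axis, bars of 1 SE), of Ptgs2 and the 15 other tested genes within 2 Mb of it, against the distance in kb from the start of Ptgs2 to the lower coordinate of each gene; the dashed line is the median of the 15 neighbours, -0.42. Ptgs2 lies below every neighbour, and 14 of the 15 lie below zero.

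The noncoding neighbours of Ptgs2 were also lower. Ptgs2os (150074873 to 150099874) starts 157 bases before Ptgs2 and is read away from it, so its first bases lie on the other strand of the Ptgs2 promoter shown above. Its levels were 4.97 ± 1.05 CPM (wild-type) and 3.26 ± 0.177 CPM (knock-out), a log2 fold change of -0.62 (SE 0.267, edgeR adjusted p = 0.0381). That call was lost with DESeq2 (adjusted p = 0.0807), with library size alone (edgeR adjusted p = 0.0975), with upper-quartile scaling (0.124) and without any 1 of 5 libraries (edgeR adjusted p from 0.0569 to 0.160). Ptgs2os2 (150159043 to 150164948), on the other side of Ptgs2, was at 52.3 ± 5.64 CPM in wild-type and fell to 26.4 ± 2.63 CPM, a log2 fold change of -1.0 (SE 0.0931, edgeR adjusted p = 4.60e-14).

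The other members were set against their surroundings in the same way. Ptgis lay 2.32 above the median of its 28 neighbours, of which 27 were lower. Ptges lay 0.61 above the median of its 80 neighbours, of which 67 were lower. Ptges3 differed from the median of its 72 neighbours by -0.31, on a chromosome whose tested genes had a median of 0.36. Ptgs1 differed from the median of its 30 neighbours by -0.11, but by -0.57 within 1 Mb, -0.33 within 5 Mb, -0.22 with DESeq2, -0.23 with no filter and -0.02 without knock-out library sg2. Ptges2 differed from the median of its 59 neighbours by -0.04, and by -0.17 without wild-type replicate 1. Ptger1 differed by -0.20 from the median of its 60 neighbours, which was -0.35, and by -0.08 within 5 Mb. Ptger4 differed by 0.08 from the median of its 15, by 0.32 within 1 Mb, by 0.21 within 5 Mb and by -0.11 without knock-out library sg2.

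**Figure D4:**
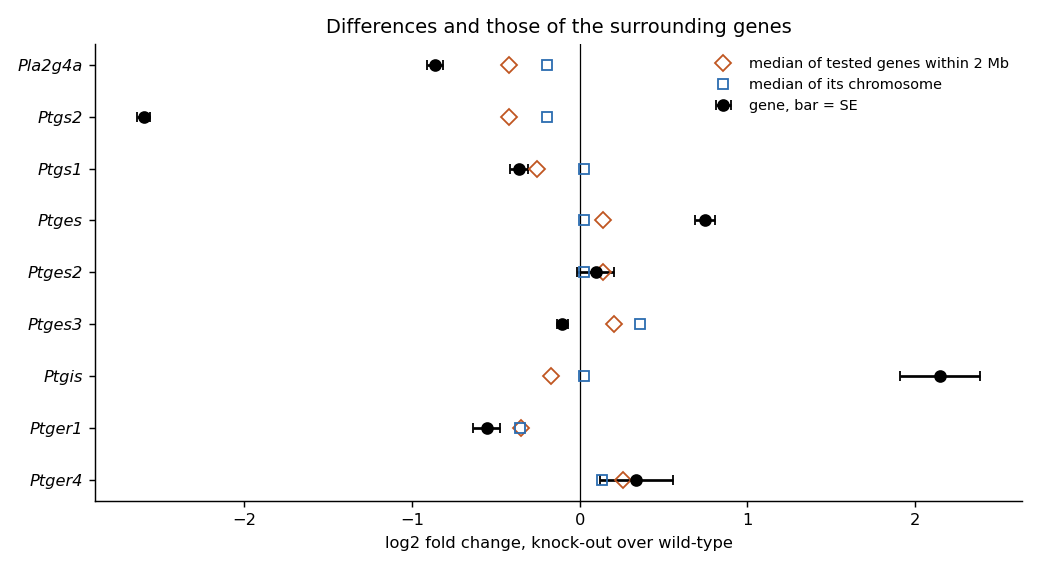
Log2 fold change, knock-out over wild-type (horizontal axis), of the 9 measured genes (filled circles, bars of 1 SE from the edgeR fit), with the median of the tested genes within 2 Mb (diamonds) and of the gene's chromosome (squares). Ptgs2 at -2.60 and Ptgis at 2.15 stand far from both medians, while Ptges2, at 0.09, lies near both.

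A list of 25 genes held other phospholipase and lipase genes and Anxa1, which is neither. Of these, 10 were tested, 5 rose, Anxa1 and Pla2g7 among them, and 2 fell, with a median log2 fold change of 0.37. That median was 0.17 without knock-out library sg1 and with the stricter filter, and 0.24 without wild-type replicate 3. Like all lists that follow, this one was drawn up with earlier results of these data known, and the background is the 33.1% of all genes called higher and the 33.2% called lower. Secreted phospholipase genes went both ways, with Pla2g12a and Pla2g2e lower and Pla2g5, named after its values were seen, higher (2.82 ± 0.834 and 6.09 ± 1.45 CPM, log2 fold change 1.13, edgeR adjusted p = 0.000280). Pla2g12a went from 97.9 ± 2.55 to 46.4 ± 4.05 CPM (log2 fold change -1.08, edgeR adjusted p = 1.21e-20). Pla2g2e went from 19.1 ± 2.48 to 6.88 ± 1.19 CPM (-1.47, edgeR adjusted p = 8.45e-12). Anxa1, annexin A1, known as an inhibitor of cytosolic phospholipase, rose from 472 ± 20.3 to 687 ± 6.60 CPM (0.54, edgeR adjusted p = 9.20e-20). Pla2g7, which hydrolyses platelet-activating factor, rose from 112 ± 4.67 to 165 ± 2.31 CPM (0.55, edgeR adjusted p = 1.55e-14).

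Of 8 genes of other prostanoid synthases, 3 were tested, and 2 rose and 0 fell, with a median of 0.28 (1.29 with the stricter filter, 0.44 with upper-quartile scaling). Gstm2, a glutathione transferase with prostaglandin E synthase activity in vitro, rose from 12.5 ± 0.601 to 59.2 ± 4.60 CPM (log2 fold change 2.24, edgeR adjusted p = 2.99e-27), and its reads may be shared with similar transferase genes. Akr1b3, an aldose reductase that can make prostaglandin F2 alpha, rose from 123 ± 2.92 to 149 ± 5.71 CPM (0.28, edgeR adjusted p = 2.47e-06). The prostaglandin D and thromboxane synthase genes were near the limit of detection. Ptgds had 0, 1 and 0 counts in wild-type and 3, 2 and 1 in the knock-out. Tbxas1 had 1, 2 and 5 counts in wild-type and 11, 7 and 5 in the knock-out.

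Breakdown and transport genes other than Hpgd were mostly higher. Of 7 listed, 5 were tested, 4 rose and 1 fell, with a median of 0.35. Slco4a1, an organic anion transporter gene, rose from 3.50 ± 0.310 to 19.4 ± 1.02 CPM (log2 fold change 2.46, edgeR adjusted p = 2.10e-18). Ptgr1, a prostaglandin reductase that acts after Hpgd, rose from 3.90 ± 1.01 to 9.71 ± 0.883 CPM (1.31, edgeR adjusted p = 3.68e-07), while Zadh2, another prostaglandin reductase gene, fell from 83.5 ± 3.59 to 48.9 ± 3.84 CPM (-0.78, edgeR adjusted p = 1.41e-14). Abcc4, which exports prostaglandins from cells, rose from 92.7 ± 9.77 to 110 ± 1.84 CPM (0.24, edgeR adjusted p = 0.000405). Slco2a1, the prostaglandin uptake transporter gene, had 5, 2 and 6 counts in wild-type and 2, 6 and 7 in the knock-out, too few for the test.

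Of 10 other prostanoid receptor genes, 4 were tested, 2 rose and 2 fell, with a median of 0.03 that ran from -0.03 to 0.05 over libraries left out and was -0.59 with the stricter filter. Ptgfrn, a regulator of the prostaglandin F receptor, rose from 59.4 ± 4.62 to 94.6 ± 3.29 CPM (log2 fold change 0.68, edgeR adjusted p = 1.58e-13). Ptgdr2, a prostaglandin D2 receptor gene, fell from 9.42 ± 1.48 to 3.89 ± 0.0717 CPM (-1.27, edgeR adjusted p = 6.18e-07), and Ppard, a nuclear receptor proposed to bind prostacyclin, fell from 35.1 ± 2.86 to 22.7 ± 1.20 CPM (-0.62, edgeR adjusted p = 4.00e-07). Ptgir, the prostacyclin receptor gene, stood at 0.595 ± 0.404 and 1.76 ± 0.477 CPM and rose (1.53, edgeR adjusted p = 0.00639), a call lost without wild-type replicate 3 (1.17, edgeR adjusted p = 0.0515). Its counts were 7, 10 and 2 in wild-type and 21, 14 and 21 in the knock-out. Ptgir passed the filter on low counts only through the knock-out libraries, where it is high, so nothing is read from its call. Ptger2, the gene of EP2, had 0, 3 and 0 counts in wild-type and 1, 3 and 0 in the knock-out, so a difference was not detectable at this depth. Ptger3, the gene of EP3, was not analysed here.

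Downstream of the receptors, 24 of 29 genes of signal transducers were tested, of which 11 rose and 9 fell (median 0.07). Under upper-quartile scaling 5 fell (median 0.23), as did 5 with library size alone (median 0.20). Of 6 tested subunit genes of protein kinase A, 3 rose, 2 fell and 1 was not called. Prkar2b, a regulatory subunit, rose from 118 ± 5.50 to 215 ± 2.65 CPM (log2 fold change 0.88, edgeR adjusted p = 1.70e-23), while Prkacb, a catalytic subunit, fell from 104 ± 4.93 to 50.9 ± 1.62 CPM (-1.03, edgeR adjusted p = 8.51e-21). The other 4 were named after their values were seen: the regulatory subunit genes Prkar1b (log2 fold change 0.92), Prkar2a (0.13) and Prkar1a (-0.12, but 0.0056 under library size alone and 0.04 under upper-quartile scaling) and the catalytic subunit gene Prkaca (-0.05, not called). The call of Prkar2a was lost with DESeq2, with no filter and without any 1 of 4 libraries, and that of Prkar1a without wild-type replicate 2 and with the stricter filter. Rapgef3, a cyclic AMP-activated exchange factor, rose from 4.19 ± 0.750 to 21.1 ± 0.681 CPM (2.31, edgeR adjusted p = 4.00e-18), and Gnai2, an inhibitory G protein, rose from 213 ± 2.82 to 321 ± 10.9 CPM (0.59, edgeR adjusted p = 6.76e-19). Of 16 tested cyclic AMP response genes, out of 19 listed, 4 rose and 8 fell, with a median of -0.37. Areg, the EGFR ligand amphiregulin and a known target of prostaglandin E2 signalling, fell from 56.3 ± 2.25 to 10.5 ± 0.366 CPM (-2.42, edgeR adjusted p = 3.10e-28). The transcription factor genes Creb1 and Fosb fell by 0.85 and 0.91 (edgeR adjusted p = 9.79e-19 and 1.08e-08), while Nr4a1 rose by 0.75 (edgeR adjusted p = 3.14e-08).

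Of 33 listed factors that act on Ptgs2 transcription or on the stability of its mRNA, 30 were tested, 9 rose and 14 fell. Their median was -0.12 (0.04 under upper-quartile scaling, 0.00 under library size alone). The AP-1 genes Fosl1 and Jun fell, from 230 ± 18.3 to 73.6 ± 1.70 CPM and from 129 ± 4.08 to 51.7 ± 4.13 CPM (log2 fold changes -1.64 and -1.32, edgeR adjusted p = 7.94e-34 and 3.16e-26). Egr1, an immediate early factor, fell from 510 ± 16.8 to 255 ± 7.64 CPM (-1.0, edgeR adjusted p = 4.04e-30), and Hif1a, the hypoxia-inducible factor, from 281 ± 13.7 to 158 ± 6.11 CPM (-0.83, edgeR adjusted p = 1.57e-23). Among the RNA-binding proteins, Elavl1 (HuR), which stabilises Ptgs2 mRNA, fell from 153 ± 5.28 to 114 ± 4.80 CPM (-0.43, edgeR adjusted p = 1.48e-10). Zfp36 (tristetraprolin), which destabilises it, stood at 16.8 ± 0.807 and 19.4 ± 1.42 CPM (0.21, edgeR adjusted p = 0.146); with library size alone (0.33) and upper-quartile scaling (0.36) it passed the threshold as higher.

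Of 19 genes of HSP90 and its co-chaperones, the machine in which the product of Ptges3 works, 18 were tested, 12 rose and 5 fell, with a median of 0.30; 3 fell under either upper-quartile or library-size scaling. Hspa8 rose from 660 ± 24.3 to 1897 ± 38.9 CPM (log2 fold change 1.52, edgeR adjusted p = 2.44e-42), Hsp90ab1 from 2361 ± 24.9 to 4800 ± 21.8 CPM (1.02, edgeR adjusted p = 4.74e-37), and Cdc37 and Dnaja1 by 0.85 and 0.81 (edgeR adjusted p = 1.14e-23 and 4.55e-21). Ptges3 itself had -0.10. Arachidonic acid also feeds a lipoxygenase and epoxide branch, of whose 20 genes 6 were tested, 4 rose and 1 fell (median 0.34). The 1 that fell, Cyp2j6 (log2 fold change -0.56, edgeR adjusted p = 0.0351), was not called with DESeq2, library size alone, upper-quartile scaling or without any 1 of 3 libraries (edgeR adjusted p from 0.0833 to 0.115). Ephx1, microsomal epoxide hydrolase, rose from 77.8 ± 9.38 to 221 ± 5.27 CPM (1.50, edgeR adjusted p = 1.11e-28), Lta4h and Cyp4f16 by 0.22 and 0.47 (edgeR adjusted p = 0.00132 and 0.00169), and Alox5ap, the 5-lipoxygenase activating protein, by 1.77 from a level of 0.857 ± 0.548 CPM (edgeR adjusted p = 0.000238). Alox5ap had 11, 3 and 13 counts in wild-type and 33, 31 and 30 in the knock-out. It passed the filter on low counts only through the knock-out libraries, where it is high, so nothing is read from its call. Over all 9 lists, 116 of 170 genes were tested, 53 rose and 42 fell, with a median of 0.07.

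**Figure D5:**
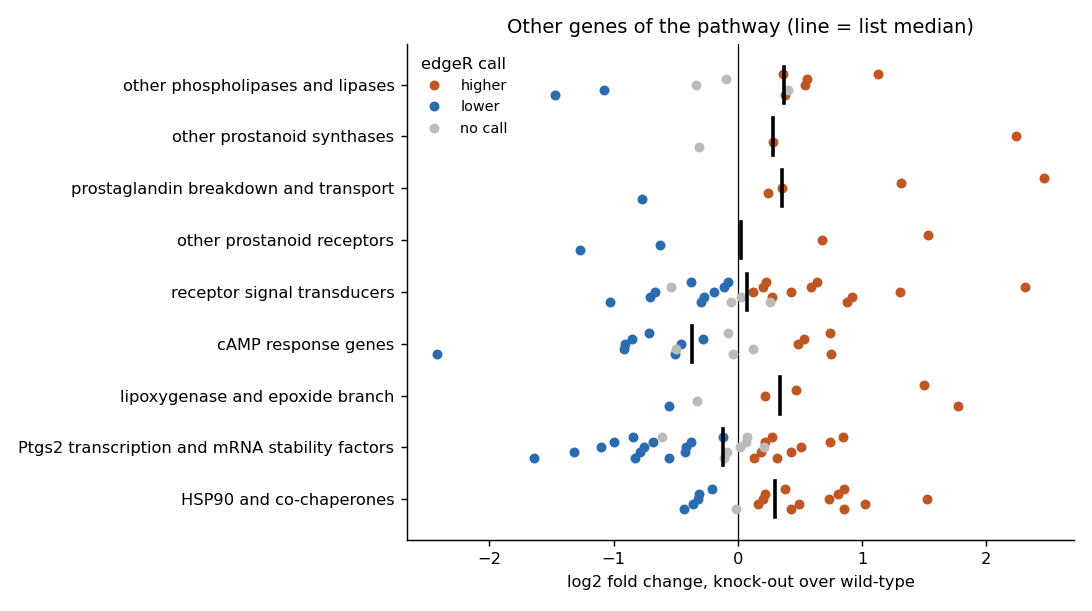
Log2 fold change, knock-out over wild-type (horizontal axis), of each tested gene of the 9 other lists of the pathway, one row per list (points; orange, called higher by edgeR; blue, called lower; grey, not called; vertical offsets only separate points), with each list's median as a black bar. The list medians run from -0.37 (cyclic AMP response genes) to 0.37 (other phospholipases and lipases, 0.17 without knock-out library sg1), and every list holds tested genes on both sides of zero.

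The genes whose profile over the 6 libraries was most like that of Ptgs2 were ranked among 10557 genes by the root mean square difference of log2 CPM after each gene's wild-type mean was subtracted. Ptgs2 was chosen for this contrast, and so the likeness is a description. The closest was Gadd45a, a stress-induced growth arrest gene, with a difference of 0.0796 and levels of 457 ± 16.8 and 72.1 ± 2.87 CPM. Car6, a secreted carbonic anhydrase, followed with 0.0852 and levels of 286 ± 13.1 and 49.9 ± 3.08 CPM, and Dynap with 0.0890 and levels of 60.8 ± 3.67 and 9.76 ± 0.762 CPM. Areg, described above, had a difference of 0.160, and Gpat3, a glycerol phosphate acyltransferase of lipid synthesis, one of 0.165. Their log2 fold changes ran from -2.66 to -2.42, beside -2.60 for Ptgs2, a closeness that the ranking itself selects for. Genes with an average log2 CPM under 1 and those with predicted Gm or Rik names were not ranked.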

How the data were processed

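The labels' protocols describe strand-specific RNA-seq libraries from TRIzol-extracted RNA, and all 6 libraries carry 1 batch date. The authors deposited whole-number read counts per Ensembl gene for them. The submitters' processing notes name fastp, STAR, HTSeq, Bowtie2, deepTools, SEACR and mm10 without roles; for the annotation release and the strand setting, nothing is given in the sources used here. Each gene in the table was above 0 in at least 3 libraries. The CUT&Tag and single-cell samples were not analysed here. The knock-out columns, sg1 to sg3, were matched to their group only, since nothing ties their numbers to replicates.

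Symbols were found for 17650 genes, and positions of 11923 tested genes came from RefSeq on GRCm38.p6. Genes were kept with filterByExpr (minimum count 10, minimum total 15), leaving 13013, and scaled with TMM. Genotypes were compared with edgeR's quasi-likelihood F test, robust estimation (edgeR 4.0.16, limma 3.58.1, R 4.3.3) and Benjamini-Hochberg adjustment over all genes at 0.05. The p-values set the difference between genotypes against the spread between libraries of a genotype. The labels do not say that these libraries came from separate cultures, so that spread may be technical. SEs came from the F statistic. CPM values use the TMM-scaled totals of kept genes. Library pairs within a genotype differed by 2.13 to 3.18 times the counting variance, so none was merged. The pipeline was also run on simulated counts in which few genes differed, unlike here, so that run cannot check the scaling.

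The members, the lists, the tests and the alternatives were chosen with earlier results of these data known. Named were the members, Kmt2c, the 4 genes of each list with the smallest p past the threshold, 8 genes chosen for their role (Ptger2, Ptger3, Slco2a1, Abcc4, Tbxas1, Ptgds, Elavl1 and Zfp36) and the 5 genes most like Ptgs2. Markers and neighbours were named beside a result, and genes named after their values were seen are marked so. Alternatives were other scalings and filters, DESeq2 1.42.0, limma voom, glmTreat, an adjusted p of 0.01, other windows and each library left out.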

Additional observations from a re-analysis of the deposited data

How the results depend on the processing

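Of 1415 values recomputed under the alternatives, 1291 were taken as unchanged. For a tested gene this meant the same direction and side of the threshold, and for a number of calls, staying within 1.5-fold of the main value. Where there was no test it meant that the value moved little. Of the rest, 64 moved further, 48 lost a call, 4 gained one and 8 reversed. The reversed ones were the log2 fold change of Ptges3 with library size alone (0.0183) and upper-quartile scaling (0.0542), those of Prkar1a (0.0056 and 0.0415) and Prkaca (0.0695 and 0.105, and 0.0185 without wild-type replicate 2, range -0.102 to 0.0185 over libraries left out) under these scalings, and that of Ptger4 against its region without 1 knock-out library (-0.11, range 0.34 down to -0.11 over libraries left out). Tested against a 1.5-fold change, 2602 genes were called (1448 higher, 1154 lower), with 33 genes of the other lists (16 higher, 17 lower) and 4 members (2 lower). Over all genes, calls split into 4301 higher and 4320 lower with TMM, 5266 higher and 3440 lower with library size alone, and 5587 higher and 3183 lower with upper-quartile scaling, where 4 members were called higher, Ptges2 (0.25) and Ptger4 (0.49) among them. Ptges3 lost its call without wild-type replicate 2 (-0.08) and with at least 50 counts in 3 libraries (-0.07). Leaving out each library gave 8082 to 8717 genes called, 89 to 96 of the other lists, 6 to 7 members and a log2 fold change of Ptgs2 from -2.64 to -2.58. The members were chosen with this contrast known, so nothing is read from their calls under any alternative. Ptgs2 against its region stayed between -2.31 and -2.08 over libraries left out, and was -2.30 with windows of 1 Mb and of 5 Mb, with DESeq2 and with no filter, and -2.23 with the stricter filter. No paired analysis was possible because the labels do not say that the numbers of the knock-out columns sg1 to sg3 are replicate numbers, so the replicate block was not run. Depth limited Ptger2, Slco2a1, Ptgds and Tbxas1, and only counts are given for them.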
